A study of Drosophila melanogaster with 12 samples.

Results

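Of the 10269 merged ATAC-seq peaks of Drosophila S2 cells, 395 were annotated to an exon or an untranslated region (UTR) of a gene, 238 to an exon, 36 to a 5' UTR and 121 to a 3' UTR. They are the peaks whose deposited annotation opens with one of these 3 labels. The gene named in the annotation text of an exon peak was taken as its host gene, and for UTR peaks, whose text names no gene, the gene with the nearest transcription start site (TSS). This gave 289 host genes, 165 of exon peaks, 33 of 5' UTR peaks and 107 of 3' UTR peaks, and a gene could host several classes. S2 (Schneider 2) is an established male, macrophage-like line of embryonic origin, labelled Oregon-R. Serum-starved cells received insulin for 4 h, at 10 µM in the study's methods and written as 10 M in the labels, or vehicle for 4 h, which was 25 mM HEPES at pH 8.2. Each treatment, in 1 cell line, had 3 ATAC-seq samples of 60000 sorted cells that excluded DAPI and 3 RNA-seq samples. The sources used here do not say that the 3 samples came from separate cultures, so p-values measure the spread between these samples only.

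In ATAC-seq a transposase cuts and tags DNA that is not wrapped by nucleosomes, and regions with many cuts are called as peaks. Most peaks in a compact insect genome lie at promoters. Coding exons are richer in G and C than introns and intergenic DNA, tend to carry well-placed nucleosomes, and in some genes also hold enhancers or start sites of alternative transcripts. UTRs are the transcribed parts of an mRNA outside its coding sequence, where translation and mRNA stability are controlled. Insulin acts in these cells through the receptor InR, phosphoinositide 3-kinase and Akt, with the transcription factor FOXO held out of the nucleus and growth promoted through TOR.

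To show what the exon peaks look like at the base level, 30 bases around the summit are printed for the exon peaks with the highest score among those called in the list of a single treatment and having a coding summit on 2L, 3L, 3R, 4 or X. The sequences are from the plus strand of the RefSeq Release 6 assembly, which has the dm6 coordinates of the files, 5' to 3', and capitals mark G and C. The first 4 lines are peaks called after insulin alone and the next 4 are peaks called after vehicle alone.
osa, chr3R:17694141-17694170: CCCCtCCGGCCCGtaGGGaGGGtaCatGtt
Muc68Ca, chr3L:11616081-11616110: tGaGCtaCttCGaCGaCaGGatCCGaaGaa
fru, chr3R:18431691-18431720: CaGaaCatGGtGttGGCCCGCtCGtCGtat
CG34398, chr2L:8929991-8930020: GaGtCCatGaCCCaCGGCGGCGGatCCtCC
Map205, chr3R:32061436-32061465: tCaCaCttaCttGCtCaCtaGCtCGtaCGt
Lk6, chr3R:11756231-11756260: GtCaGCttGtaCaGCtCtGGtGGaaGaaat
rudhira, chrX:11830806-11830835: GGaGaaGGaGCtGaaGCtaaaGGaGaaaGa
Eip75B, chr3L:17954491-17954520: CtCtGtCGCGGaCtGCCGGCaCtCaGGCtG
G and C made up 20, 15, 17 and 21 of the 30 bases in the first 4, in osa, Muc68Ca, fru and CG34398, and 14, 14, 14 and 21 in the last 4, in Map205, Lk6, rudhira and Eip75B. The groups overlap, and 8 windows are an illustration of the shares given further on.

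The exon and UTR peaks were far from annotated starts by construction, because the annotation gives promoters precedence over other features. The distance from the nearest TSS in the deposited annotation ran from 3002 to 93043 bp, with a median of 5087 bp. That TSS is not always one of the host gene. Against the transcripts of the Ensembl reference annotation, 8 of the 395 peaks held a TSS and 28 more had one within 1000 bp. The other 359 were farther away. The starts counted here include those of transposable elements.

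Exon peaks lay mostly in internal exons. By the annotation, 202 of 238 were in an internal exon, 32 in the last exon, 1 in the first exon of several and 3 in a transcript of a single exon. The summit of the peak, the position of its highest signal in the pooled calls, was in coding sequence in 184 exon peaks, in an intron in 51 and in a noncoding exon in 3. In 104 of them the whole peak was exonic, and in 48 less than 50% of it was. Of the exon peaks, 134 had a host other than the gene with the nearest TSS. An exon of the host lay under 237 of the 238 in the reference annotation.

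UTR peaks were tied to their host less surely. The reference annotation had a 3' UTR of the nearest gene under 49 of the 121 3' UTR peaks, and only 3' UTRs of other genes under the other 72. For 5' UTR peaks the counts were 25 and 11. Among the affected hosts are some named further on: the peak assigned to bor lies over a 3' UTR of tara, that of Hsc70-5 over Mdr50, that of Aats-ile over Ten-m, that of CG15399 over Syt1, that of CG9319 over Fs(2)Ket, that of Act42A over Src42A and that of Rel over the 5' UTR of Nmdmc. Summits of the 3' UTR peaks were in a 3' UTR in 51, in coding sequence in 50, in an intron in 8, in a noncoding exon in 6 and between genes in 6. In 5' UTR peaks they were in a 5' UTR in 10, in coding sequence in 11, in an intron in 14 and in a noncoding exon in 1.

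Exon and 3' UTR peaks were narrow. The median width was 540 bp for exon peaks, 890 bp for 5' UTR peaks and 560 bp for 3' UTR peaks, against 690 bp for all merged peaks. The files give 1 accessibility level per peak, the authors' mean normalized count over all libraries of both treatments, so no spread can be given for it. Per kb of peak the median of this mean was 343 for exon peaks, 348 for 5' UTR peaks and 341 for 3' UTR peaks, against 360 for all merged peaks. The quartiles were 309 and 391 for exon peaks and 316 and 412 for all merged peaks, so the distributions overlap.

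The most accessible members stood well apart from these medians. The exon peak of CG45783 on 3R (3169421 to 3170530) had a mean count of 15656, or 14104 per kb. Only 16.6% of it was exonic and its summit was in an intron. Next among exon peaks were CG43313, with 1656 per kb, and the noncoding RNA gene CR45232, with 936 per kb. Reads with several matches in the genome were placed at random by the authors' aligner, and the part of repeated sequence in these levels was not tested. Among 3' UTR peaks the highest were the peak assigned to the noncoding RNA gene CR45367, which lies over the 3' UTR of Plc21C (1792 per kb), and a pair of peaks of CG32850 on chromosome 4 (805 and 717 per kb). In 5' UTR peaks they were a peak of 3240 bp assigned to CG33640 that lies over the gene B4 (756 per kb), and peaks of cdi (484 per kb) and ap, a LIM-homeodomain transcription factor gene (469 per kb).

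Of the 11 annotation classes of the merged peaks, exon peaks had the highest share found in the insulin list alone. The next were the 24 peaks 2 to 3 kb downstream of a gene, with 20.8%. The authors called 1 list per treatment on its samples together, and a merged peak counts as called after a treatment when a peak of that list overlaps it by at least 1 bp. Called after insulin alone were 86 exon peaks (36.1%, 95% Wilson interval 30.3 to 42.4%), 2 5' UTR peaks (5.56%, 1.54 to 18.1%) and 16 3' UTR peaks (13.2%, 8.31 to 20.4%). Together these were 104 of 395 members (26.3%), against 8.78% of all merged peaks. Called after vehicle alone were 28 exon peaks (11.8%, 8.27 to 16.5%), 4 5' UTR peaks (11.1%, 4.41 to 25.3%) and 22 3' UTR peaks (18.2%, 12.3 to 26.0%). Together these were 54 members (13.7%), against 12.4% of all merged peaks. The other 237 members were called in both lists. The intervals cover counting error only, since lists pooled over replicates have no spread between replicates, and no test was run.

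**Figure D1:**
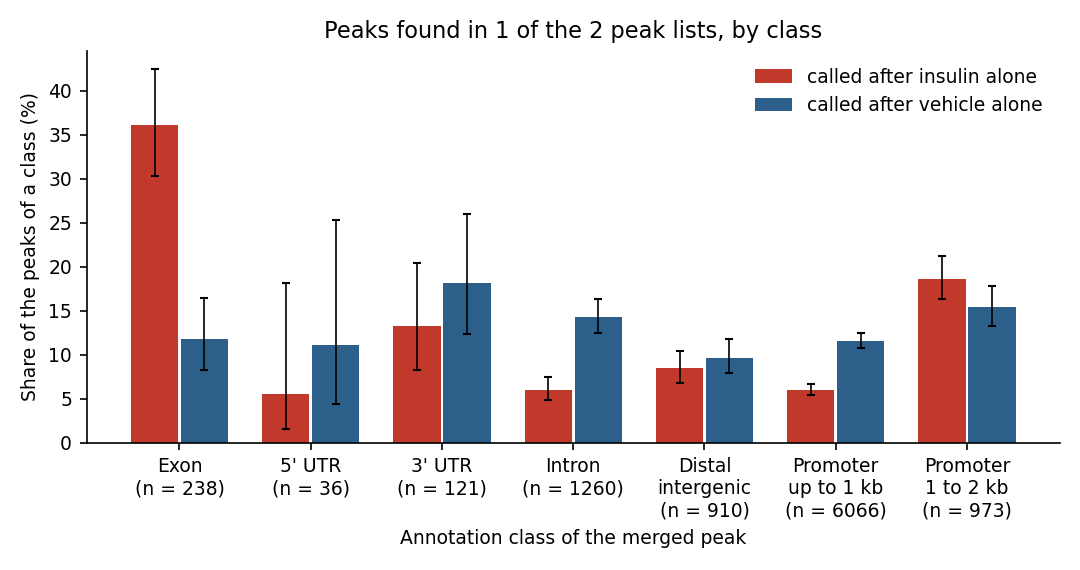
Share of the merged peaks of the annotation classes named under the bars (2 to 3 kb promoter and downstream classes not drawn) (%, vertical axis) found in the insulin list alone (red, left bar) and in the vehicle list alone (blue, right bar), with 95% Wilson intervals and the number of peaks under each class. Exon peaks stand at 36.1% for insulin alone, against 6.03% of 1260 intron peaks and 18.6% of 973 peaks lying 1 to 2 kb from a TSS.

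All the exon and UTR peaks of the insulin list alone were weak calls. Their score, which the authors' peak caller gave and which ranks peaks within a list, ran from 24 to 81, while the median over the merged peaks in the insulin list was 118. Those of the vehicle list alone had scores of 23 to 134, with a median of 132 over the merged peaks in that list. Single-list peaks of all classes together also scored low. Over all merged peaks, scores ran from 20 to 204 (median 39) for insulin alone and from 20 to 314 (median 55) for vehicle alone. The medians of the members were 37.5 and 41. With only peaks at or above the median score of their own list counted, 0 members remained for insulin alone and 1 for vehicle alone. Among the 237 members called in both lists, the insulin score ran from 23 to 110028, with a median of 82. The shares of single-list peaks therefore concern peaks near the limit of detection in 1 treatment. By the study's supplement the insulin ATAC-seq libraries held more nonduplicate reads in sum than the vehicle libraries, and the part of this depth in the list shares was not tested.

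Single-list exon peaks were narrow and coding. The median width of exon peaks was 440 bp for insulin alone, 380 bp for vehicle alone and 820 bp for both lists. In 80 of the 86 called after insulin alone the summit was in coding sequence. Of the 184 exon peaks with a coding summit 43.5% were called after insulin alone, against 11.8% of the 51 with an intron summit. Internal exons (35.6% of 202) and last exons (37.5% of 32) gave close values.

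GC content moved with the list a peak came from, in exons and outside them. The central 300 bp of exon peaks had a median GC content of 53.3%, those of 5' UTR peaks 46.8% and those of 3' UTR peaks 46.7%, against 43.7% for intron peaks and 46.0% for all merged peaks. By list, the exon median was 55.3% for insulin alone, 53.2% for vehicle alone and 50.8% for both. In 3' UTR peaks the gap was wider, with a median of 56.7% for insulin alone, 37.3% for vehicle alone and 46.0% for both.

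Within bins of GC content the exon peaks still had higher insulin-alone shares than the other peaks. Of exon peaks with up to 40% GC, 1 of 18 (5.56%) was called after insulin alone, and the share was 8.33% from 40 to 45%, 26.3% from 45 to 50%, 46.2% from 50 to 55% and 46.2% above 55% GC. Of the peaks outside exons and UTRs the shares in the same bins were 1.97%, 4.29%, 8.28%, 13.1% and 21.1%. Among peaks of up to 700 bp with over 55% GC, 41 of 73 exon peaks (56.2%) and 9 of 16 3' UTR peaks (56.3%) were called after insulin alone, against 220 of 659 peaks outside exons and UTRs (33.4%). The vehicle-alone share ran the other way outside exons and UTRs, from 15.8% in the lowest GC bin to 8.76% in the highest. In 3' UTR peaks it was 15 of 33 (45.5%) up to 40% GC and 1 of 27 (3.70%) above 55%. The part of GC content and width in the list shares was not tested.

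**Figure D2:**
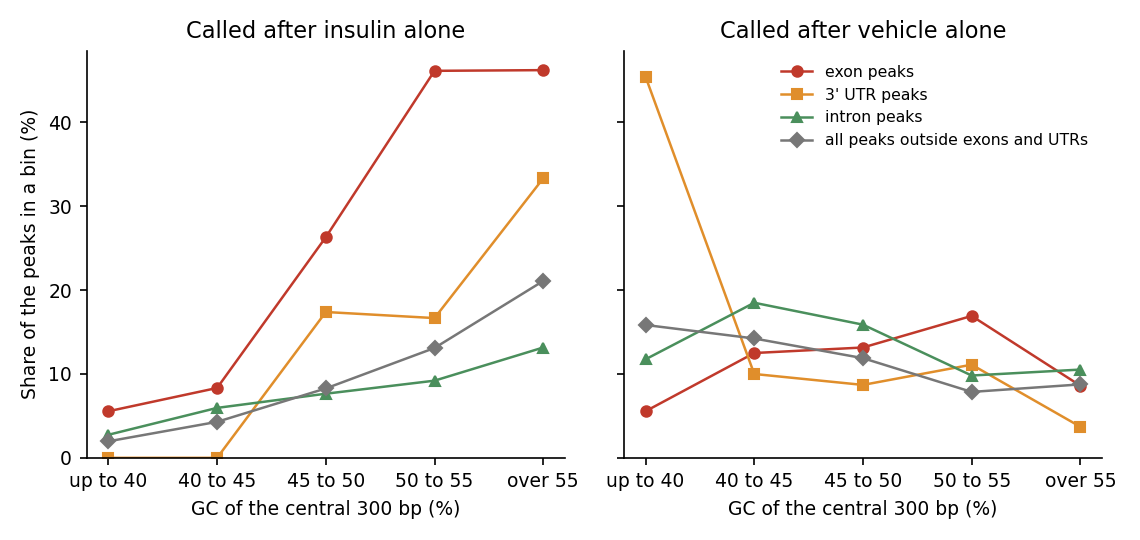
Share of peaks called after insulin alone (left panel) and after vehicle alone (right panel), in %, by GC content of the central 300 bp, for exon peaks, 3' UTR peaks, intron peaks and all peaks outside exons and UTRs. The insulin-alone share of exon peaks is 46.2% in both of the highest bins, against 13.1% and 21.1% outside exons and UTRs, and the vehicle-alone share of 3' UTR peaks is 45.5% in the lowest bin.

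**Figure D3:**
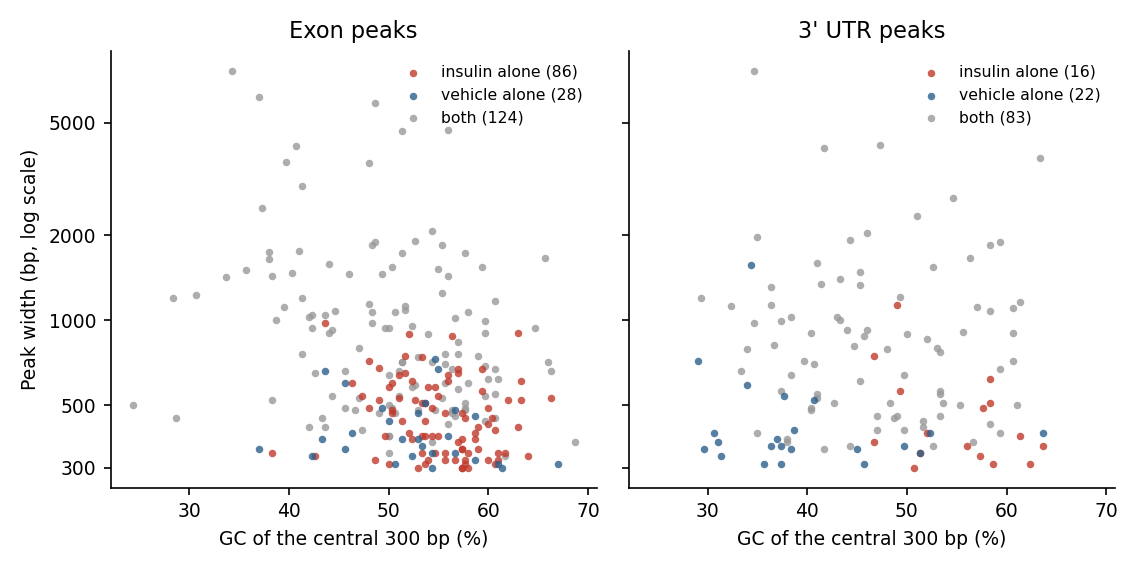
Width (bp, log scale) and GC content of the central 300 bp (%) of each of the 238 exon peaks (left) and 121 3' UTR peaks (right), coloured by the list or lists in which the peak was called. Exon peaks called after insulin alone (red) lie at narrow widths, median 440 bp, and 3' UTR peaks called after vehicle alone (blue) lie at low GC, median 37.3%.

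Where members were called in both lists, their widths differed in either direction, with a small median. The median of the insulin width minus the vehicle width was -10 bp over the 237 members, 105 of them wider in the insulin list and 120 in the vehicle list. It was 20 bp for 124 exon peaks, -45 bp for 30 5' UTR peaks and -30 bp for 83 3' UTR peaks, against -40 bp for the 8092 merged peaks in both lists. Single peaks differed by more, with quartiles of -100 and 110 bp over the 237 members. For all merged peaks in both lists the quartiles were -140 and 20 bp.

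The single-list members with the highest scores were spread over unlike genes. After insulin alone they were an exon peak of osa, a subunit gene of the SWI/SNF chromatin remodelling complex (score 81), an exon peak of the mucin gene Muc68Ca (68), a 5' UTR peak of CG33298 (67) and a 3' UTR peak assigned to CR44673 that lies over AstC-R2, an allatostatin receptor gene (64). After vehicle alone they were a 3' UTR peak assigned to Ada that lies over pum, which encodes an RNA-binding translational repressor (134), an exon peak of Map205, a microtubule-associated protein gene (123), a 3' UTR peak assigned to the endoplasmic reticulum chaperone gene Hsc70-3 that lies over CkIIbeta (111) and a 3' UTR peak assigned to CG13000 that lies over Ubr1 (105). Of the peaks the study cloned into reporter plasmids, 2 are members. Neither is among those for which the study reported significantly raised luciferase activity after insulin. The 3' UTR peak of tio, a zinc finger gene, was called in both lists, with a score of 204 in the insulin list and 158 in the vehicle list. The peak assigned to CG12038, which lies over the glucose transporter gene Glut1, was called after insulin alone with a score of 39.

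Some genes carried several of these peaks. Of the 289 hosts, 221 had 1, 45 had 2 and 23 had 3 or more. The cell surface protein gene Ten-m and sli, whose product is the ligand of Robo receptors, had 5 exon peaks each. In Ten-m all 5 were called in both lists, and in sli 4 were, with 1 called after insulin alone. All 4 exon peaks of Unc-89 and all 3 of CG34398 and of CG31619 were called after insulin alone. The product of Unc-89 is a giant muscle protein of the obscurin family. The titin-like gene sls had 5 peaks in its exon 26, at GC contents of 46.0 to 48.3%, of which 2 were called after insulin alone and 3 in both lists. The peaks of msn, a kinase gene, and of ex, a gene of the Hippo pathway, were called in both lists, 3 each. The neighbouring peaks of a gene went to different lists in rudhira, with 1 called after insulin alone, 2 after vehicle alone and 1 in both. In Eip75B, an ecdysone-induced nuclear receptor gene, 1 of 2 exon peaks was called after insulin alone and the other after vehicle alone.

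The promoter motifs DRE and Motif 1 were rare in the central 300 bp of the members, and the initiator was the most frequent of the 10 motifs searched. DRE (TATCGATA), bound by the promoter factor DREF, matched in 0 of 395 members (3 counts of the total allow a share of up to 0.759%), against 2.55% of all merged peaks in a window of the same length. Motif 1 (GGTCACACT) matched in 1 member (0.253%), against 2.00% of all. Both were rare in intron peaks too, with DRE in 0.635% and Motif 1 in 0.159% of them. Forkhead sites (GTAAACA), the kind that FOXO binds, matched in 3.04% of members and 1.26% of exon peaks, against 7.52% of all. GAGA repeats (GAGAGAG) matched in 6.33% of members, against 10.2%. The E-box CACGTG, which Myc and Max bind, matched in 4.05% of members and 3.96% of all, and GATA sites (TGATAAG) in 3.29% and 5.23%. For STAT sites (TTCNNNGAA) the shares were 5.57% of members and 7.35% of all. For the tRNA B box (GTTCGAANC) they were 0.506% and 0.886%, and for the initiator (TCAGTT) 14.2% and 18.7%. The initiator was also the most frequent of the 10 motifs in intron peaks (21.0%) and over all merged peaks. Both strands were searched, and motifs may overlap each other.

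Of the 10 motifs, AP-1 sites and the E-box had a higher share in exon peaks than over all merged peaks, the E-box in 5.04% of exon peaks. Over whole peaks the E-box turned round, with 10.1% of exon peaks against 12.8% of all merged peaks. In the central 300 bp TGACTCA, the site of Jun and Fos dimers, matched in 18 of 238 exon peaks (7.56%). The shares were 4.31% of all merged peaks and 6.35% of intron peaks. It matched in 1 of 36 5' UTR peaks and 1 of 121 3' UTR peaks. Over whole peaks TGACTCA matched in 13.9% of exon peaks, 12.9% of all merged peaks and 15.1% of intron peaks. The matches of the 4 exon peaks with the most counts per kb among those with a coding summit on 2L, 3L, 3R, 4 or X are printed to show their surroundings in coding sequence, with the motif or its reverse complement in capitals, plus strand, 5' to 3'.
cv-c, chr3R:14432099-14432128: gctgttgccgtTGAGTCAtggctaggactt
Hel89B, chr3R:15981267-15981296: agcgatccggaTGAGTCAgtgcgattgctt
Gprk2, chr3R:31456308-31456337: gaaggtttgttTGACTCAgcttactcctga
plum, chr3R:26477408-26477437: gatatcaccgcTGACTCAtcccactcgatc
The peaks of cv-c and plum were called in both lists, that of Hel89B, a helicase gene, after vehicle alone and that of Gprk2, a G protein-coupled receptor kinase gene, after insulin alone. A match is a description of the letters and not a bound site.

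The RNA of the host genes was measured in libraries of 7132065 to 10256535 counts, and counts of the same treatment differed less than those of different treatments (chi-square per degree of freedom 2.27 to 6.83 against 21.8 to 28.4). Of the 8683 genes tested with edgeR's quasi-likelihood test, 2342 were higher and 2002 lower after insulin at a Benjamini-Hochberg adjusted p under 0.05. Of the macrophage-like markers, 5 of 8 were in the count table and summed to 418 to 428 CPM (counts scaled to library size) in insulin libraries and 552 to 557 in vehicle libraries. NimC1, He and Sr-CI, and the crystal cell markers lz, PPO1 and PPO2, were not in the count table. Of the muscle, germline and neuron markers in the table only Tm1 (426 CPM in insulin libraries and 372 in vehicle libraries on average), aub (121 and 132) and elav (62.6 and 56.0) were above 2 CPM, while Mhc, Act88F, vas, nos, bam, nSyb, Syt1 and brp were under it in both treatments. The gene mys, listed here as a lamellocyte marker, was the highest of all markers, averaging 648 CPM in insulin libraries and 777 CPM in vehicle libraries. These values were above the sum of the macrophage-like markers in both treatments. The other lamellocyte marker, atilla, was not in the count table, and the level of mys alone does not identify lamellocytes. Of the fat body markers only Lsp1beta was in the table, under 2 CPM in both treatments. Fewer cells of a kind and less RNA per cell cannot be told apart in bulk RNA.

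Of the 289 hosts, 269 were in the count table and 249 had enough counts to be tested. After insulin 68 of the 249 were higher (27.3%) and 85 lower (34.1%), against 27.0% higher and 23.1% lower among all tested genes, and 96 did not pass. The median log2 fold change of insulin over vehicle was -0.05 over the hosts and -0.01 over all tested genes. Hosts of exon peaks were lower more often than higher, with 35 higher and 60 lower of 155. Hosts of 5' UTR peaks had 7 higher and 12 lower of 26, and those of 3' UTR peaks 26 higher and 19 lower of 83. Hosts of intron peaks, given for comparison, had 96 higher and 161 lower of 408, close to the shares of exon hosts. The 6 libraries did not overlap between treatments in 161 of the 249 hosts (64.7%), against 55.6% of all tested genes. Hosts of intron peaks (65.4%) and of promoter peaks within 1 kb of a TSS (62.4%) had shares close to that of the 249.

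The direction of these counts depends in part on the scaling. With upper-quartile factors in place of TMM, 55 hosts were higher and 110 lower, and over all tested genes 1920 were higher and 2619 lower. Exon hosts then had 27 higher and 79 lower, and 3' UTR hosts 23 higher and 27 lower; the order of higher and lower calls was thus reversed for hosts of 3' UTR peaks.

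**Figure D4:**
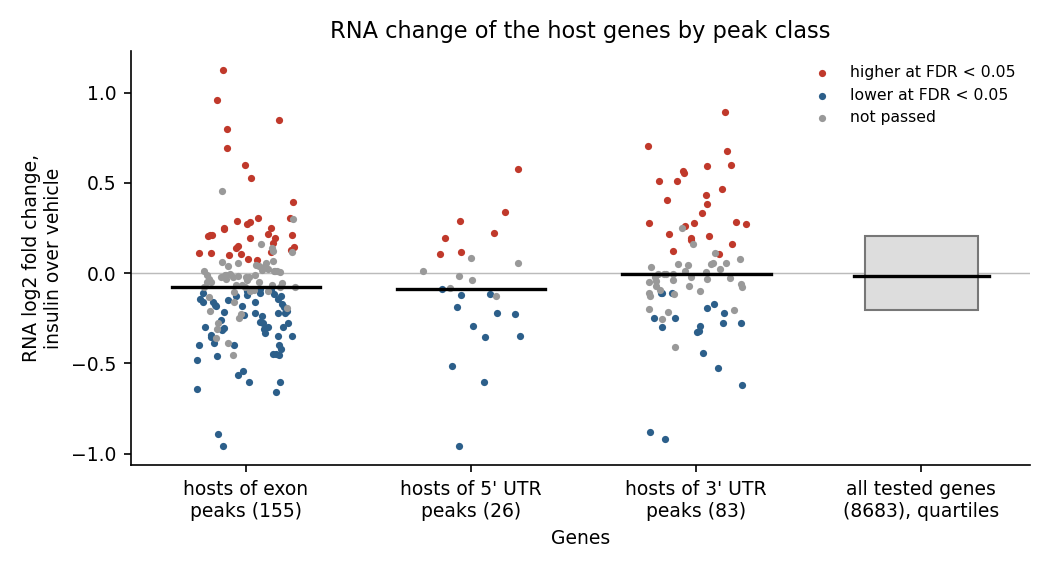
RNA log2 fold change of insulin over vehicle (vertical axis) of the tested hosts of exon, 5' UTR and 3' UTR peaks, 1 point per gene, coloured by edgeR call, with the median as a black line, and the quartiles and median of all 8683 tested genes as a grey box. The medians are -0.07 for exon, -0.09 for 5' UTR and -0.003 for 3' UTR hosts and -0.01 for all tested genes.

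RNA changes of exon hosts were counted by the list in which the peak was called. Hosts of exon peaks called after insulin alone had 18 higher and 28 lower of 71, with a median log2 fold change of -0.07. Hosts of exon peaks called after vehicle alone had 5 higher and 10 lower of 24, with a median of -0.07. Hosts of exon peaks in both lists had 17 higher and 34 lower of 90, with a median of -0.08. A host with peaks in several groups counts in each, and the groups were not compared by a test.

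RNA levels of the hosts covered the whole range. Per kb of exon, as RPKM, the 267 hosts with a length ran from 0.0724 to 1422, with a median of 24.1. Under 1 RPKM were 38 hosts, among them CG11905, CG34398 (0.0890), dpr17, a neuronal cell surface protein gene (0.0950), Syn, the synapsin gene (0.0999), Muc68Ca (0.155) and Unc-89 (0.234). At least 100 RPKM had 26 hosts, among them the actin gene Act42A (1304), Hsc70-3 (1297), chic, the profilin gene (291), arm, the beta-catenin gene (199) and Ten-m (168). Across the 369 peaks whose host had an RPKM, the authors' mean count per kb and the RNA level were hardly related, on log2 scales with 1 added to the RPKM (Pearson r = -0.11, Spearman coefficient = -0.13). Across the 234 exon peaks they were -0.18 and -0.17. Peaks of 1 host share its RNA value, so the points are not independent.

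The 10 largest rises among hosts had log2 fold changes of 0.60 to 1.13. CG6126, with an exon peak called in both lists, had 47.0, 53.9 and 52.5 CPM in insulin libraries, against 24.0, 22.2 and 23.5 CPM in vehicle libraries. The treatments did not overlap, and the log2 fold change was 1.13 (SE 0.0752, adjusted p = 7.83e-17). CG3940, a carbonic anhydrase gene, also with an exon peak in both lists, averaged 51.8 ± 1.67 CPM in insulin libraries and 26.5 ± 1.43 CPM in vehicle libraries (SD, n = 3 each), with a log2 fold change of 0.96 (adjusted p = 2.68e-15, edgeR). B4, with 2 exon peaks whose summits are in introns, had 578, 555 and 573 CPM in insulin libraries, against 307, 317 and 323 CPM in vehicle libraries. Every insulin library was above every vehicle library, at a log2 fold change of 0.85 (SE 0.0327, adjusted p = 4.81e-25).

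Several of the risen genes were hosts by the nearest TSS only. bor, which encodes a mitochondrial AAA ATPase, had 262, 259 and 269 CPM in insulin libraries, against 146, 142 and 138 CPM in vehicle libraries (log2 fold change 0.89, SE 0.0374, adjusted p = 1.02e-23). Its peak of 3' UTR class lies over tara, whose RNA was lower, at 81.9 ± 3.81 CPM in insulin libraries and 108 ± 4.201 CPM in vehicle libraries (SD, n = 3 each, log2 fold change -0.40, adjusted p = 9.83e-10, edgeR). Hsc70-5, the mitochondrial Hsp70, rose by a log2 fold change of 0.71 (adjusted p = 1.79e-23, edgeR), while Mdr50, the gene under the peak, was at 1.48 CPM in insulin libraries and 1.13 CPM in vehicle libraries on average and did not pass the test. Aats-ile, the isoleucyl-tRNA synthetase, rose by 0.67 (adjusted p = 2.18e-21), with its peak over the 3' UTR of Ten-m.

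Rises of hosts with a peak in their own exons or UTR were of like size. Hsc70Cb, a gene of the Hsp110 chaperone family, averaged 631 ± 16.2 CPM in insulin libraries and 417 ± 16.9 CPM in vehicle libraries (SD, n = 3 each), a log2 fold change of 0.60 (adjusted p = 1.87e-19, edgeR). The others among the 10 largest were CG8468 (0.70), CG17018 (0.60) and alpha-Est8 (0.80), a carboxylesterase gene at 7.201 CPM in insulin libraries and 4.14 CPM in vehicle libraries. Of these 4 genes, the peaks of Hsc70Cb, CG8468 and alpha-Est8 were called after insulin alone and that of CG17018 in both lists. In the rest of the 10 largest rises, CG6126, CG3940, bor, B4, Hsc70-5 and Aats-ile, all peaks were called in both lists. Over all members the share called after insulin alone was 26.3%.

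The largest fall was in rudhira, a homolog of vertebrate BCAS3 that acts on the cytoskeleton, which had 137, 133 and 140 CPM in insulin libraries, against 269, 263 and 265 CPM in vehicle libraries. The treatments were far apart, at a log2 fold change of -0.96 (SE 0.0372, adjusted p = 6.05e-25, edgeR). Its 3 exon peaks lie in exons 3, 4 and 8, and its 5' UTR peak was called in both lists. crq, whose product Croquemort is a CD36-family receptor of macrophages for dying cells, had 168, 176 and 168 CPM in insulin libraries, against 258, 264 and 263 CPM in vehicle libraries (log2 fold change -0.62, SE 0.0363, adjusted p = 1.29e-18, edgeR). Its 3' UTR peak was called in both lists and covers a 3' UTR of the neighbouring gene ex as well.

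Other falls were ec, a gene related to ubiquitin proteases, at 624 ± 17.8 CPM in insulin libraries and 949 ± 13.6 CPM in vehicle libraries (SD, n = 3 each, log2 fold change -0.60, adjusted p = 9.59e-21, edgeR), and CG4297 (-0.89), whose exon peak was called after vehicle alone. CG9319 (-0.92) and CG15399 (-0.88) fell too, with their peaks over the 3' UTRs of Fs(2)Ket and Syt1. pdgy, an acyl-CoA synthetase gene (-0.64), the chloride channel gene tty (-0.66), the cell death gene hid (-0.60) and CG10185 (-0.57) had at most 10.5 CPM in any library. The calls of tty, hid and CG10185, like those of CG42748, Mnt, hiw, kis, mam, msn and shn given further on, were lost in at least 1 alternative setting.

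**Figure D5:**
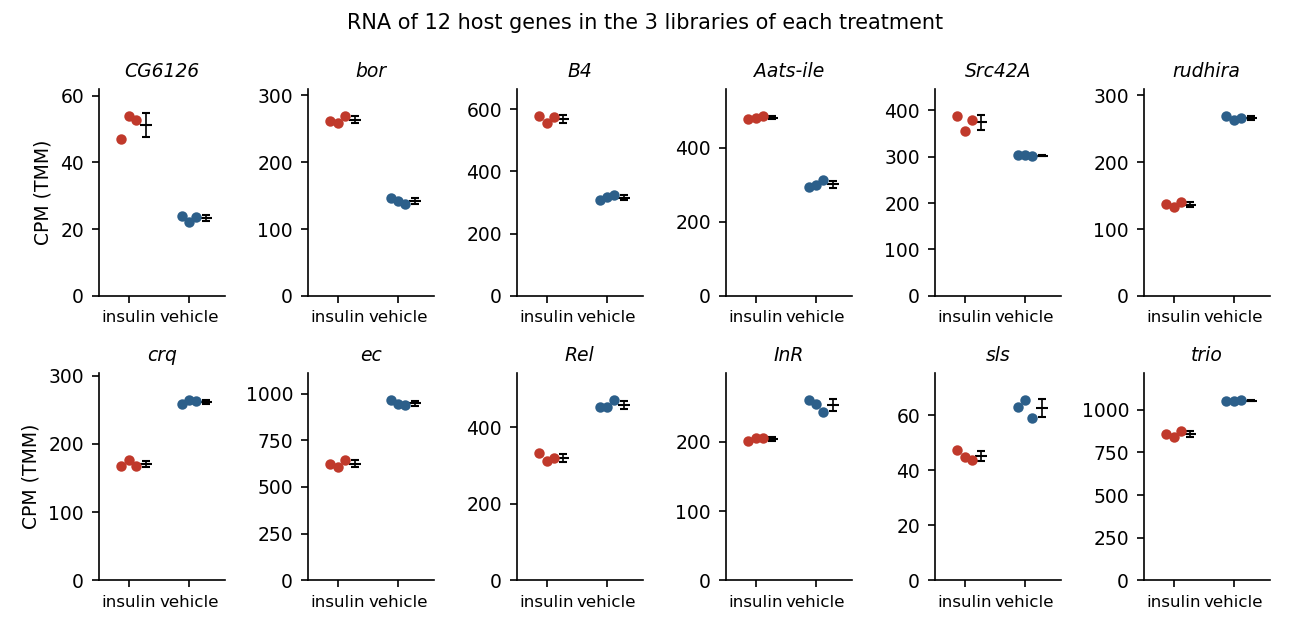
RNA of 12 host genes in CPM (TMM-scaled, vertical axis from 0), 1 point per library, 3 insulin libraries in red on the left and 3 vehicle libraries in blue on the right, with mean and SD in black. In the first 5 genes the insulin libraries are higher, as in CG6126 at 47.0 to 53.9 against 22.2 to 24.0, and in the other 7 they are lower, as in rudhira at 133 to 140 against 263 to 269.

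Of 24 tested genes of the insulin and TOR list 10 were higher and 6 lower after insulin, and 2 were hosts. Over all tested genes 2.87% were hosts. InR, the insulin receptor, had 201.5, 205.3 and 205.8 CPM in insulin libraries, against 260, 255 and 244 CPM in vehicle libraries, with no overlap (log2 fold change -0.31, SE 0.0361, adjusted p = 1.08e-09, edgeR). Its exon peak, in exon 3, was called in both lists. Mnt, a partner of Max that opposes Myc, was lower at a log2 fold change of -0.12 (adjusted p = 0.0330, edgeR), with libraries that overlap, and its 5' UTR peak was in both lists.

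Of the kinases, Src42A had 387, 355 and 378 CPM in insulin libraries, against 302, 303 and 301 CPM in vehicle libraries (log2 fold change 0.31, SE 0.0344, adjusted p = 3.68e-10, edgeR). It had 1 exon peak called after insulin alone and 1 called after vehicle alone, and the peak assigned to Act42A lies over its 3' UTR. Abl, with 4 exon peaks, gave 666 ± 25.3 CPM in insulin libraries and 641 ± 10.7 CPM in vehicle libraries (SD, n = 3 each), which did not pass (adjusted p = 0.142, edgeR). Ptp61F, a tyrosine phosphatase gene, did not pass either, at a log2 fold change of 0.01 with a 95% interval of -0.08 to 0.09.

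DNA-binding factors were the largest listed group, with 15 hosts and 28 member peaks. Of the 14 tested hosts 0 were higher and 7 lower by edgeR, against 8 higher and 17 lower of the 43 tested genes of the whole list. Rel, the NF-kappaB factor Relish of the immune response, had 331, 310 and 320 CPM in insulin libraries, against 452, 452 and 470 CPM in vehicle libraries (log2 fold change -0.51, SE 0.0335, adjusted p = 3.83e-17, edgeR). Its peak lies over the 5' UTR of Nmdmc, a gene of mitochondrial folate metabolism, which had 147, 156 and 149 CPM in insulin libraries, against 53.1, 48.0 and 51.4 CPM in vehicle libraries. Nmdmc, named here after its values were seen, rose by a log2 fold change of 1.56 (adjusted p = 1.16e-28, edgeR).

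The blood cell factors ush, a FOG-family cofactor, and srp, the GATA factor it binds, were lower at log2 fold changes of -0.31 and -0.22 (adjusted p = 7.52e-06 and 1.14e-05, edgeR). The exon peak of ush was in both lists and held a GATA match in its central 300 bp, and that of srp was called after insulin alone. crol, a zinc finger gene, was lower by -0.17 (adjusted p = 1.67e-05), and shn, a zinc finger gene of Dpp signalling, by -0.13 (adjusted p = 0.00930). fru and lola, BTB zinc finger genes with 4 and 5 member peaks, stood at log2 fold changes of -0.003 and -0.02 and did not pass (adjusted p = 0.955 and 0.649). At the collagen IV gene vkg, listed with crq and srp among the blood cell genes, RNA was lower by -0.18 (adjusted p = 8.99e-06, edgeR), so that 3 of 3 hosts of that list were lower, against 12 of the 16 tested genes of the list. srp and crq are themselves macrophage-like markers and hold most of the sum that was lower in insulin libraries. They averaged 160 and 171 CPM in insulin libraries and 187 and 262 CPM in vehicle libraries. Hml, eater and Pxn averaged 19.9, 5.10 and 66.3 CPM, against 28.9, 7.87 and 69.7 CPM. The lower sum is thus not separate from the values of srp and crq, and the part of cell make-up in them was not tested.

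Of the 4 nuclear receptor hosts 1 passed the test. Eip75B was lower by -0.18 (adjusted p = 0.00162, edgeR), at 96.6 ± 7.99 CPM in insulin libraries and 110 ± 2.81 CPM in vehicle libraries (SD, n = 3 each). Eip78C had a log2 fold change of -0.36 (95% interval -0.71 to -0.00276) and did not pass (unadjusted p = 0.0550, adjusted p = 0.0987, edgeR). The intervals of log2 fold changes use a normal approximation, and this one is narrower than the test implies. Eip78C passed without library X2 of vehicle (-0.49) or X5 of insulin (-0.50). Hr39 (-0.03) and Hr4 (-0.08) did not pass. Of the 16 tested genes of that list 3 were higher and 7 lower.

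Hosts for the cytoskeleton divided. Of 8 tested hosts 3 were higher and 4 lower, against 12 higher and 16 lower of 44 tested genes of the list. trio, a guanine nucleotide exchange factor gene, had 858, 841 and 874 CPM in insulin libraries, against 1052, 1055 and 1057 CPM in vehicle libraries (log2 fold change -0.30, SE 0.0295, adjusted p = 1.19e-11, edgeR), and shot, which links actin and microtubules, was lower by -0.29 (adjusted p = 3.25e-11). chic was higher by 0.27 (adjusted p = 3.14e-09) and Act42A by 0.18 (adjusted p = 3.71e-07). The exon peak of chic was called after insulin alone. The exon peak of trio, the 5' UTR peak of shot and the peak assigned to Act42A were in both lists.

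In the chromatin group osa was lower by -0.14 (adjusted p = 0.00460, edgeR), kis, a CHD-family remodeller gene, was higher by 0.08 (adjusted p = 0.0357), and the Polycomb gene ph-d did not pass (adjusted p = 0.179). Of the Notch, Wnt, hedgehog and Dpp genes, mam was lower by -0.11 (adjusted p = 0.0187, edgeR), while N, arm and Ser did not pass.

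Among hosts with 3 or more member peaks, sls was the one after rudhira that changed most, with 47.3, 44.6 and 43.5 CPM in insulin libraries, against 63.0, 65.4 and 59.0 CPM in vehicle libraries (log2 fold change -0.46, SE 0.0608, adjusted p = 1.95e-08, edgeR). CG31619 was lower by -0.22 (adjusted p = 1.75e-07), sli by -0.15 (adjusted p = 3.67e-05) and Ten-m by -0.09 (adjusted p = 0.00432), each with no overlap between treatments. CG42748 (-0.11) and hiw, a ubiquitin ligase gene of synapses (-0.21), were also lower. SPoCk, a calcium pump gene of the secretory pathway, was higher by 0.22 (adjusted p = 4.52e-06), Prosap, a Shank-family scaffold gene, by 0.15 (adjusted p = 0.00113) and msn by 0.11 (adjusted p = 0.00222, edgeR). CG31140, PhKgamma, mbc, ex and Unc-89 did not pass, though PhKgamma (-0.13), mbc (-0.12) and ex (-0.11) did, as lower, with upper-quartile factors. CG34398 and CG42784, at averages under 1 CPM in both treatments, were not tested, and stnB was not in the count table.

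The peak assigned to CG12038 lies over Glut1, whose RNA averaged 5.54 CPM in insulin libraries and 4.08 CPM in vehicle libraries and did not pass (adjusted p = 0.0985, edgeR). The lists of metabolism and transport (22 tested genes), core histones (3), small RNAs (2) and markers of other tissues (3) held 0 hosts, and at 2.87% of tested genes being hosts a count of 0 in lists of this size is no result about them.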

How the data were processed

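ATAC-seq and RNA-seq were measured in S2 cells, 3 samples per treatment and assay. The authors aligned ATAC-seq reads to dm6 with Novoalign, reads with several matches placed at random, called 1 peak list per treatment from its pooled samples, and annotated the merged peaks with ChIPseeker. The deposited peak lists carry a score, and the deposited signal is the authors' mean normalized count per peak over all libraries. For RNA-seq the authors used STAR (BDGP6) and strand-specific featureCounts, and the deposited raw counts are not normalized. The deposited sample sheet gives the treatment of each RNA library. The sources used here give no versions of these tools. The authors' own comparisons (log2 fold changes, p-values, pathways) and the normalized RNA tables were not used, so no change in accessibility per peak is given.

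RNA counts were TMM-scaled, filtered with filterByExpr (8683 of 10287 genes kept) and compared with edgeR 4.0.16 (limma 3.58.1, R 4.3.3), quasi-likelihood with robust fits, Benjamini-Hochberg over all tested genes, at 0.05; the biological coefficient of variation was 4.40%. The script was tested on simulated data. RPKM used exon lengths from the Ensembl annotation, in which 122 gene IDs were matched to the files by symbol. GC and motifs were read from the RefSeq Release 6 assembly. Python 3.11.15, pandas 2.3.3, numpy 2.4.6, scipy 1.17.1 and matplotlib 3.10.9 were used.

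Alternatives were DESeq2 1.42.0, upper-quartile factors, no filter, an adjusted p of 0.01, each library left out, other host rules, an overlap of 50%, a score limit and other windows. Hosts of exon peaks alone, and UTR peaks limited to those over a UTR of their host, were added after the data were seen. Named were the 10 largest rises and falls that passed with at least 5 CPM and no overlap, the 3 most accessible peaks per class, hosts with 3 or more peaks, cloned peaks, up to 4 hosts per gene list by adjusted p, and the 4 highest-scoring peaks of each single list. Members and the 13 gene lists were chosen with earlier results of these data known.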

Additional observations from a re-analysis of the deposited data

How the results depend on the processing

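No paired analysis was possible because the RNA count columns carry no replicate number. Over the alternatives, 46 counts and medians stayed within the limits set for them and 13 moved; of the values of named hosts, 496 kept direction and side of the threshold, 36 lost it, 9 gained it and 17 changed sign, all 17 in genes that did not pass the test. The calls gained were of ex, PhKgamma, mbc, ph-d and arm with upper-quartile factors, and of Abl (without X5), mbc (without X6) and Eip78C (without X2 or X5) with a library left out. With upper-quartile factors the median log2 fold change of the hosts was -0.105, and CG31140 stood at -0.0416, Unc-89 at -0.0442, Ptp61F at -0.0481 and N at -0.0444; without the filter Ptp61F stood at -0.00028. Leaving out 1 library at a time gave 60 to 68 hosts higher, 77 to 85 lower and a median of -0.0624 to -0.0347. The log2 fold change then ran from -0.0222 to 0.0201 for fru, -0.0353 to 0.00310 for lola, -0.0525 to 0.0481 for CG31140, -0.26 to 0.17 for Unc-89, -0.0293 to 0.0486 for Ptp61F, -0.21 to 0.0121 for Hr4 and -0.0179 to 0.0298 for N. With hosts of exon peaks only, added after the data were seen, 35 of 155 were higher (22.6%) and 60 lower (38.7%). Over all 249 tested hosts the shares were 27.3% and 34.1%, and over all tested genes 27.0% and 23.1%. Among peaks at or above the median score of their list, 0 members (0 exon peaks) were called after insulin alone and 1 member (0 exon peaks) after vehicle alone. With an overlap of at least 50% of both peaks required, 5 5' UTR and 26 3' UTR peaks counted as called after insulin alone. Under the same rule 7 5' UTR peaks counted as called after vehicle alone. These counts take in peaks found in both lists whose calls overlapped by less, so a peak can count on both sides. In the central 200 bp GAGA matched in 4.05% of members, Motif 1 in 0%, the B box in 0% and the initiator in 9.37%. Over all merged peaks these shares were 7.28%, 1.38%, 0.623% and 12.6%. In whole peaks GAGA matched in 13.9%, forkhead in 9.87%, the E-box in 11.6% and GATA in 11.6% of members. AP-1 matched in 11.4%, STAT in 16.7% and the initiator in 31.4%. In the same order, all merged peaks had 22.5%, 21.6%, 12.8%, 17.0%, 12.9%, 23.3% and 43.0%. AP-1 and the E-box thus turned round for the members. In the central 300 bp AP-1 had 5.06% of members against 4.31% of all, and the E-box 4.05% against 3.96%. The cause of these moves was not tested, beyond the shorter or longer window searched and the peaks or genes left out. Lists pooled over samples give no spread for accessibility, and 3 libraries per treatment limit the RNA comparison.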
